A study of Mus musculus with 6 samples.

Results

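Canonical Wnt signalling was followed through 10 genes in mouse embryonic stem cells depleted of the long noncoding RNA Panct1. The genes are the effector Ctnnb1, the DNA-binding factors Lef1, Tcf7, Tcf7l1 and Tcf7l2, the ligand Wnt8a, the secreted inhibitor Dkk1 and the pathway targets Sp5, Axin2 and Notum. They were chosen by name, with earlier results of these data known. Every probe set annotated to exactly 1 of them was taken, which gave 18 of 45037 probe sets. These cover 9 of the 10 genes, since no probe set was named Tcf7 in the probe table, and no value is given for it. RNA came from Oct4-Gip cells, a single stem cell line carrying a reporter under regulatory sequences of Oct4, grown with serum and the self-renewal cytokine LIF. One group received Panct1 esiRNA, an enzymatically cut pool of short double-stranded RNAs, and the control group received esiRNA against Luciferase, which has no target in mouse cells. Each group had 3 arrays, both groups were harvested 72 hours after lipofection of 60000 cells with 800 ng of esiRNA, and all values below are log2 signals of the Affymetrix Mouse430 version 2 array.

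In the canonical Wnt pathway a secreted Wnt protein binds Frizzled and Lrp5 or Lrp6 at the cell surface and stops a destruction complex of Axin, Apc, Gsk3 and casein kinase from marking β-catenin for degradation. Stabilised β-catenin enters the nucleus and joins the Tcf and Lef factors on their target genes, several of which encode feedback inhibitors. In mouse embryonic stem cells Tcf7l1 acts mainly as a repressor that limits the self-renewal network, and β-catenin relieves that repression.

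Array medians lay between 6.07 and 6.09 and lower quartiles between 4.65 and 4.70, so a signal below 4.65 is among the dimmest 25% of probe sets. Arrays correlated at 0.997 to 0.998 within a group and at 0.991 to 0.993 between groups. No probe set was named as Panct1, so its depletion could not be checked here. Embryonic stem cell markers were bright in both groups, with Pou5f1, which encodes Oct4, at 13.69 ± 0.10 in Panct1 esiRNA cells and 13.93 ± 0.03 in Luciferase esiRNA cells (SD, n = 3 each). It fell by 0.24 (limma adjusted p = 0.0324), a call that was lost without any 1 array other than Panct1 esiRNA replicate 3 (adjusted p = 0.0629 to 0.11). Zfp42, a marker of naive stem cells, fell by 0.42, while Nanog differed by 0.15 and Sox2 by -0.14 without passing an adjusted p of 0.05. Of the 8 stem cell markers on the list, 5 fell and 0 rose, with a list mean of 12.66 to 12.67 on Panct1 esiRNA arrays and 12.81 to 12.90 on Luciferase esiRNA arrays. The others that fell, picked out after seeing their values, were Esrrb (fell by 0.50), Dppa4 (fell by 0.29) and Utf1 (fell by 0.20). When adjusted over all probe sets, the 1 set of Pou5f1 did not pass. Of the 3 sets of Utf1, 0 passed, and of the 3 sets of Esrrb, 1 passed. For comparison, 24.2% of all 18193 genes passed, 12.9% higher and 11.3% lower. Markers of other cell types also moved with the treatment: 9 of 10 trophectoderm markers rose, and the mean log2 signal of that list was 8.76 to 8.77 on Panct1 esiRNA arrays and 7.43 to 7.49 on Luciferase esiRNA arrays. Among primitive streak and mesoderm markers 3 of 10 rose (list mean 6.03 to 6.15 on Panct1 esiRNA arrays, 5.86 to 5.95 on Luciferase esiRNA arrays). Of fibroblast markers 3 of 8 rose (list mean 5.69 to 5.74 on Panct1 esiRNA arrays, 5.48 to 5.58 on Luciferase esiRNA arrays). Of 9 primitive endoderm markers 1 rose and 3 fell (6.10 to 6.19 on Panct1 esiRNA arrays, 6.17 to 6.26 on Luciferase esiRNA arrays). Picked out for their low signal, Elf5 of trophectoderm, Gsc of the streak and Lum of fibroblasts were dimmer than the lower quartile, in Panct1 and Luciferase esiRNA cells alike. The part of such cells in the results below was not tested, and in bulk RNA a change in the number of cells of a type cannot be told apart from a change in RNA per cell.

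Promoters are shown for the target that rose most, a target without a call, the factor gene with a split response and the inhibitor, because the letters that Tcf and Lef factors bind differ among them. The motif CTTTG followed by 2 letters that are each A or T was searched on both strands of windows running from 250 bases before to 50 bases after annotated starts, and capitals mark the matches. Matches with T as the first of these letters overlap the motif of Sox factors, and no matches in the windows shown overlap each other. The windows are RefSeq sequence of GRCm38.p6, read 5′ to 3′ along the gene: Sp5 at chr2:70474673-70474972 (plus strand), Axin2 at chr11:108920099-108920398 (plus), the internal start of Tcf7l2 at chr19:55895071-55895370 (plus) and Dkk1 at chr19:30549447-30549746 (minus).
Sp5: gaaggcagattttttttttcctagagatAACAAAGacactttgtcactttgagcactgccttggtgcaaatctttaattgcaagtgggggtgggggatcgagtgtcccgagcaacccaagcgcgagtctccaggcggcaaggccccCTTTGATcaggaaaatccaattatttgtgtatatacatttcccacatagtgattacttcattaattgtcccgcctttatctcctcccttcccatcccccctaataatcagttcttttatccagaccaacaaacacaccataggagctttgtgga
Axin2: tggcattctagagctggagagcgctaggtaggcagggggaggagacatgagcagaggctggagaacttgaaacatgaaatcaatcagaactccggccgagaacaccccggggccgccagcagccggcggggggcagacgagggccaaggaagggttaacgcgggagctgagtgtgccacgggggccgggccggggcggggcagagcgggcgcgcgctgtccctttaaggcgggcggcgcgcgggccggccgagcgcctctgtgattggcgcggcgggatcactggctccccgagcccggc
Tcf7l2 internal start: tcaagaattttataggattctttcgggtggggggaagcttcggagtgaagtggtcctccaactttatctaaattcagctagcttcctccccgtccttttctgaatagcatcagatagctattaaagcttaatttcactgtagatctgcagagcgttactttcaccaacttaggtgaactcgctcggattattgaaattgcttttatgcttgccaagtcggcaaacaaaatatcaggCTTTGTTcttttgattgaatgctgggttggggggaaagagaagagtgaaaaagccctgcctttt
Dkk1: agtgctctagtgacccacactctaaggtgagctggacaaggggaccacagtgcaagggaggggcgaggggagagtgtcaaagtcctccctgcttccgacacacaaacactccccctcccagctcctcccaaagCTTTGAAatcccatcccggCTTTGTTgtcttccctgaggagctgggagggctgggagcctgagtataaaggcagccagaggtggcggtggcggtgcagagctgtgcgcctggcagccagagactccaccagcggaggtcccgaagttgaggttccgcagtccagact
The Sp5 window held 2 matches, beginning 222 and 104 bases before the start, and the Dkk1 window held 2, at 117 and 98 bases. In the internal Tcf7l2 window 1 match began 14 bases before the start, and the Axin2 window held 0. Of all 32851 windows in the table, 16.9% held at least 1 match and 1.94% at least 2. A window was listed for 8 of the 10 genes, 14 windows in all, of which 4 held a match, the remaining one being an internal start of Lef1. Wnt8a and Notum, both among the genes called below, had no window listed. The other listed start of Tcf7l2, with 70% G and C, held 0 matches. The promoters shown were picked with their matches known, so they do not relate matches to calls. Windows rich in G and C leave less room for these letters: G and C made up 45% of the Sp5 window, 70% of the Axin2 window, 42% of the internal Tcf7l2 window and 60.7% of the Dkk1 window, with a median of 52.7% over all windows. A match is a run of letters and not a measured binding site.

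Of the 18 probe sets, 5 (27.8%) passed the threshold of an adjusted p under 0.05 in limma over all probe sets, 4 higher and 1 lower in Panct1 esiRNA cells. Over the whole array 14.6% of probe sets passed, 7.82% higher and 6.76% lower. Arrays of Panct1 and Luciferase esiRNA cells were fully separate for 5 of 18 as well, a share near the 30.4% of all probe sets. The calls fell on 4 of the 9 measured genes: Sp5, Wnt8a and Tcf7l2 rose and Notum fell. Through the brightest probe set per gene 4 of 9 passed as well (44.4%). Of all genes 24.2% passed in that way, 12.9% higher and 11.3% lower. Ctnnb1, Tcf7l1, Lef1, Axin2 and Dkk1 had 0 calls over 11 probe sets, with 0 at an unadjusted p under 0.05 and adjusted p-values from 0.291 to 0.881 over all uncalled sets. The median difference of the 18 probe sets was 0.04, beside -0.02 over the array.

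**Figure D1:**
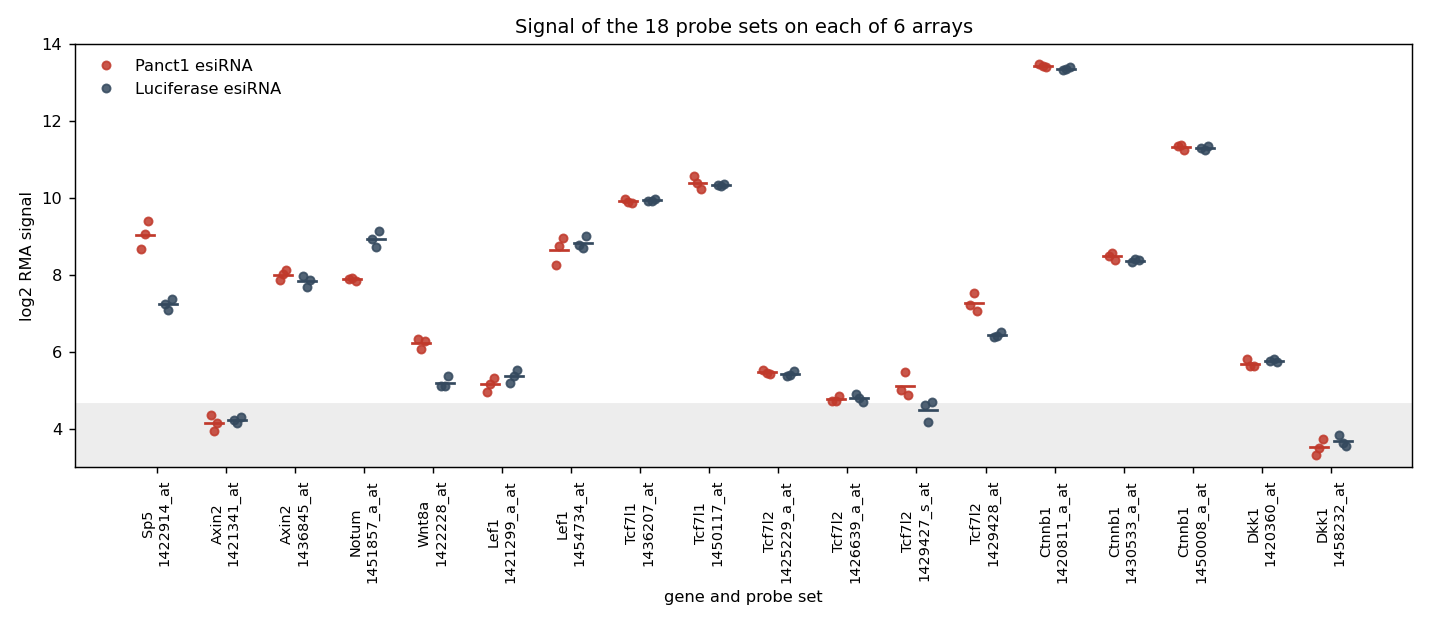
Log2 RMA signal (vertical axis) of each probe set (horizontal axis) on the 3 Panct1 esiRNA arrays (red) and the 3 Luciferase esiRNA arrays (dark blue), with a bar at each mean and grey shading below 4.65, the lowest lower quartile of an array. The groups separate for Sp5, Notum, Wnt8a and 2 probe sets of Tcf7l2.

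**Figure D2:**
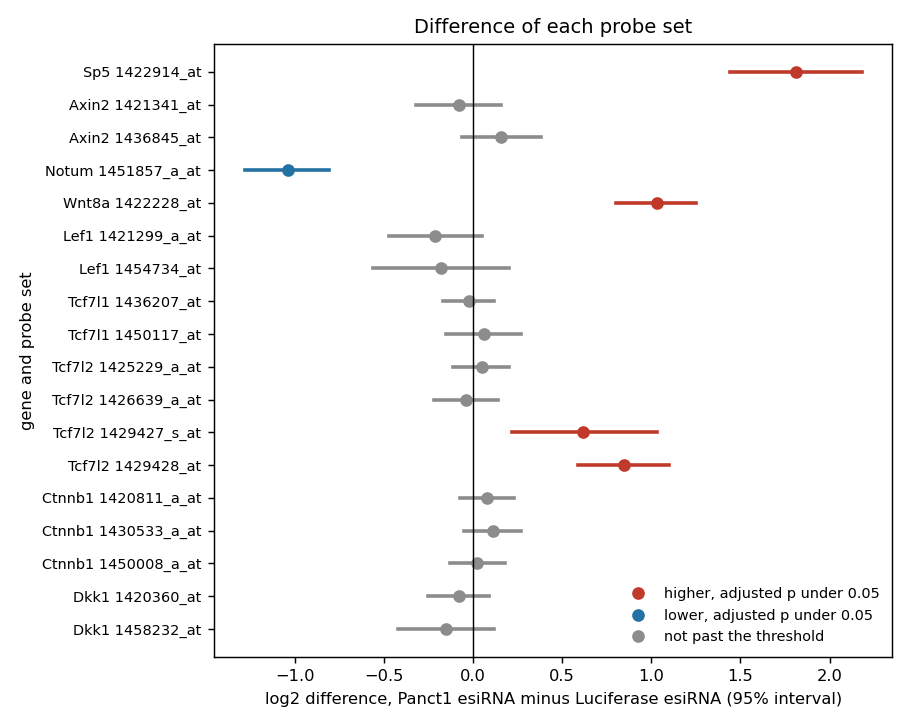
Log2 difference of Panct1 esiRNA minus Luciferase esiRNA (horizontal axis) for each probe set (vertical axis), with its 95% interval from limma, over 3 arrays per group. Sp5 lies at 1.81, Wnt8a at 1.03 and Notum at -1.04, while all intervals of Ctnnb1, Tcf7l1, Lef1, Axin2 and Dkk1 include 0.

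Sp5 encodes a zinc finger factor of the Sp family and is a direct target of β-catenin in the early embryo. Its probe set 1422914_at read 8.68, 9.06 and 9.39 on the Panct1 esiRNA arrays and 7.25, 7.08 and 7.37 on the Luciferase esiRNA arrays. Every Panct1 esiRNA array lay above every control array, and the lowest of them exceeded the highest control by more than the range of either group. The means were 9.04 ± 0.36 and 7.23 ± 0.15 (SD, n = 3 each), a rise of 1.81 on the log2 scale (SE 0.16, 95% interval 1.44 to 2.18), or 3.51-fold (limma adjusted p = 1.95e-04). In signal the gene stood at the 81.7th percentile of probe sets in Panct1 esiRNA cells and the 65.9th in Luciferase esiRNA cells.

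Notum, the other target that passed, encodes a secreted esterase that inactivates Wnt proteins by removing their lipid. Its probe set 1451857_a_at read 7.89, 7.93 and 7.84 on the Panct1 esiRNA arrays, against 8.94, 8.72 and 9.13 on the Luciferase esiRNA arrays. The 3 knockdown values lay close together and below all controls. Notum averaged 7.89 ± 0.05 and 8.93 ± 0.21 and fell by 1.04 (SE 0.10, 95% interval -1.28 to -0.81, limma adjusted p = 3.08e-04), which is 2.06-fold lower in Panct1 esiRNA cells. Sp5 and Notum, both used as readouts of the pathway, thus changed in opposite directions.

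Axin2, the feedback scaffold of the destruction complex and the most general target of the pathway, did not pass. The brighter probe set 1436845_at read 7.86, 8.03 and 8.12 in Panct1 esiRNA cells and 7.97, 7.68 and 7.88 in Luciferase esiRNA cells, and the groups overlapped. Its difference was 0.16 (SE 0.10, 95% interval -0.06 to 0.38, limma adjusted p = 0.362), an interval that leaves out any change beyond 1.31-fold. The other set, 1421341_at, averaged 4.15 ± 0.21 and 4.23 ± 0.08, below the lower quartile of the arrays, so it bears little on the gene. Set against the brighter Axin2 set on the same arrays, Sp5 moved by 1.65 more (SE 0.14) and Notum by -1.20 (SE 0.12). Each gave an exact two-sided permutation p of 0.1 (adjusted 0.1 over 5 such comparisons, chosen after the values were seen), the smallest that 3 arrays against 3 allow.

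Wnt8a, a ligand of the primitive streak, rose. Probe set 1422228_at read 6.33, 6.07 and 6.29 on the Panct1 esiRNA arrays and 5.12, 5.12 and 5.37 on the Luciferase esiRNA arrays, with no overlap. The means were 6.23 ± 0.14 and 5.20 ± 0.14 (SD, n = 3 each), a difference of 1.03 (SE 0.10, 95% interval 0.80 to 1.25, limma adjusted p = 2.93e-04) or 2.04-fold. The signal stood at the 52.4th percentile in Panct1 esiRNA cells and the 34.4th in Luciferase esiRNA cells, so the signal was near the array's median in Panct1 esiRNA cells and dim in Luciferase esiRNA cells.

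Dkk1, which blocks Lrp5 and Lrp6 from outside the cell, was dim in both groups and did not pass. Probe set 1420360_at read 5.81, 5.63 and 5.63 in Panct1 esiRNA cells and 5.76, 5.82 and 5.73 in Luciferase esiRNA cells, a difference of -0.08 (SE 0.08, 95% interval -0.25 to 0.09, limma adjusted p = 0.572). The second set, 1458232_at, averaged 3.52 ± 0.21 and 3.67 ± 0.14, well below the lower quartile.

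Ctnnb1, which encodes β-catenin, was read by one of the brightest probe sets of the array and did not pass. Probe set 1420811_a_at read 13.49, 13.43 and 13.39 on the Panct1 esiRNA arrays and 13.32, 13.36 and 13.39 on the Luciferase esiRNA arrays, at the 99.2nd and 99th percentile. Its difference was 0.08 (SE 0.07, 95% interval -0.07 to 0.23, limma adjusted p = 0.505). The other sets differed by 0.11 (1430533_a_at) and 0.02 (1450008_a_at), and the 3 intervals leave out a change beyond 1.21-fold. RNA levels carry no information on the stability of the β-catenin protein, through which the pathway works.

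Tcf7l1, the main repressor of the family in these cells, did not pass either. Probe set 1450117_at read 10.57, 10.39 and 10.23 in Panct1 esiRNA cells and 10.34, 10.31 and 10.36 in Luciferase esiRNA cells, and 1436207_at averaged 9.91 ± 0.05 and 9.93 ± 0.03. The differences were 0.06 (SE 0.09, 95% interval -0.15 to 0.27) and -0.02 (SE 0.06, 95% interval -0.17 to 0.12), neither past the threshold (limma adjusted p = 0.747 and 0.869).

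Lef1, an activator that is itself a target of the pathway, read 8.26, 8.74 and 8.97 (1454734_at) on the Panct1 esiRNA arrays and 8.78, 8.71 and 9.01 on the Luciferase esiRNA arrays. Panct1 esiRNA replicate 1 was the lowest and the groups overlapped. The difference was -0.18 (SE 0.17, 95% interval -0.56 to 0.20, limma adjusted p = 0.573), with Lef1 the least precisely measured of the uncalled genes. The dimmer set 1421299_a_at differed by -0.21 (SE 0.11, adjusted p = 0.291).

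Tcf7l2, the fourth factor of the family, gave a split answer. Probe set 1429428_at read 7.23, 7.53 and 7.07 on the Panct1 esiRNA arrays and 6.38, 6.40 and 6.51 on the Luciferase esiRNA arrays, without overlap. It rose by 0.85 (SE 0.11, 95% interval 0.59 to 1.10, limma adjusted p = 0.0015), or 1.80-fold. Probe set 1429427_s_at, designed from the same expressed sequence tag (BB175494), read 5.00, 5.48 and 4.89 in Panct1 esiRNA cells and 4.62, 4.17 and 4.71 in Luciferase esiRNA cells. It rose by 0.62 (SE 0.18) at an adjusted p of 0.0497, and this call was lost without any 1 of the 6 arrays (adjusted p = 0.0501 to 0.134). Its mean in Luciferase esiRNA cells, 4.50, lay below the lower quartile of the arrays. The sets 1425229_a_at and 1426639_a_at, designed from other sequences, differed by 0.05 (SE 0.07, 95% interval -0.11 to 0.20) and -0.04 (SE 0.08, 95% interval -0.22 to 0.14) and did not pass. Both were dim, at the 38.6th and 27.1st percentile of mean signal over the arrays. Against 1425229_a_at on the same arrays, 1429428_at moved by 0.80 more (SE 0.14, exact permutation p = 0.1, the smallest possible). The pair was chosen after the values were seen, so this p adds no support to a difference between the sets. Whether the sets read different Tcf7l2 transcripts was not tested, and the dim sets bear little on it.

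Among the other genes of the pathway, 127 of 130 on 7 lists by role were measured, each through its brightest probe set. Of these, 29 rose and 12 fell (32.3%), beside 24.2% of all genes. The lists too were chosen with earlier results of these data known, so the shares are only a description. Their median difference was 0.03, beside -0.02 over all genes.

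**Figure D3:**
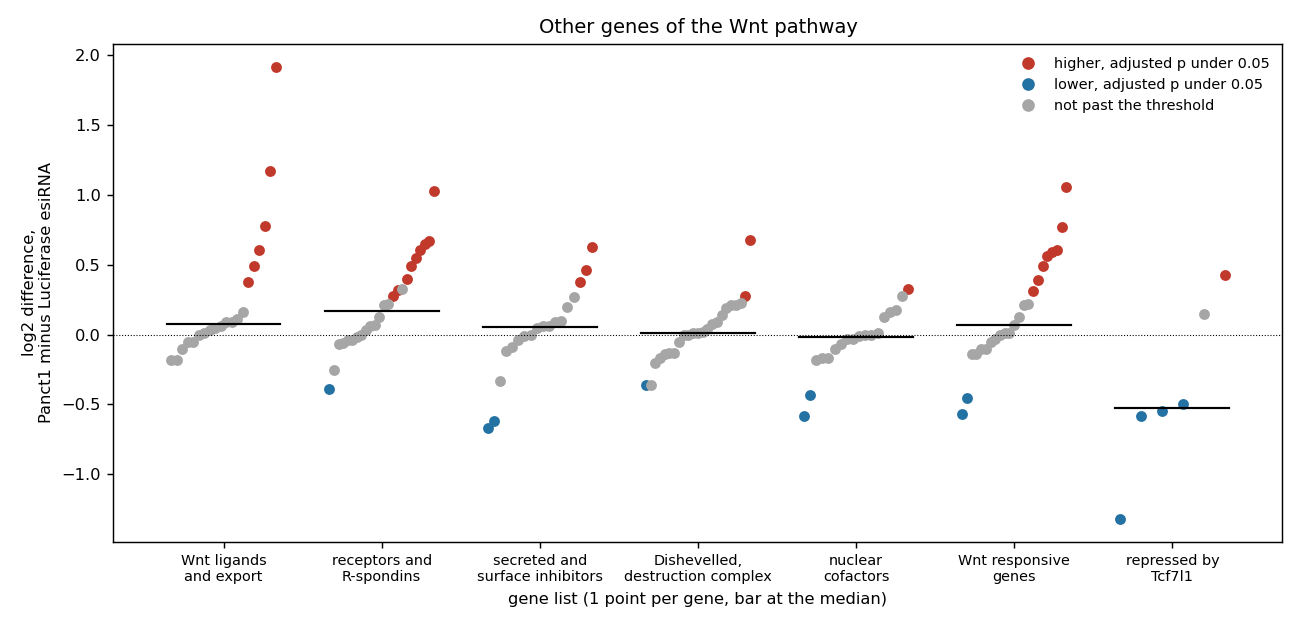
Log2 difference of Panct1 esiRNA minus Luciferase esiRNA (vertical axis) for each measured gene of 7 lists (horizontal axis), 1 point per gene, coloured by direction where limma's adjusted p over all genes was under 0.05, with a bar at each list's median. A gene on several lists has a point in each. Wls stands highest at 1.92 and Nr0b1 lowest at -1.32.

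Genes of Wnt ligands and their export rose in 6 of 20 and fell in 0 (30%, beside 24.2% of all genes). The list median was 0.07. The largest rise was in Wls, the carrier that brings Wnt proteins to the cell surface, which read 7.80, 7.77 and 7.73 in Panct1 esiRNA cells and 5.88, 5.71 and 5.96 in Luciferase esiRNA cells. That is a rise of 1.92 (SE 0.08, limma adjusted p = 2.81e-06) or 3.78-fold, and 3 of its 4 probe sets passed as higher. Wnt4 averaged 8.51 ± 0.16 and 7.33 ± 0.22 and rose 2.26-fold, and Wnt5b averaged 6.01 ± 0.20 and 5.23 ± 0.08 and rose 1.71-fold, each with both probe sets passing. Wnt3, a streak ligand singled out after seeing its values, rose by 0.61 to a signal of 5.02 ± 0.31, against 4.40 ± 0.12 in Luciferase esiRNA cells. Porcn, named likewise, the enzyme that attaches the lipid to Wnt proteins, was not among the genes that passed (-0.18).

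Receptors, R-spondins and their partners rose in 9 of 24 and fell in 1 (41.7%, beside 24.2% of all genes), with a median of 0.17. The Frizzled receptor Fzd6 averaged 8.27 ± 0.10 in Panct1 esiRNA cells and 7.62 ± 0.09 in Luciferase esiRNA cells and rose by 0.65 (SE 0.08, limma adjusted p = 4.34e-04). Ror2, a receptor kinase for Wnt5a, rose by 0.67, and Fzd1 rose by 0.61. For each of the 3, only 1 probe set passed, and the lowest set of Fzd6 and of Fzd1 differed by -0.03. Of genes picked out after seeing their values, the coreceptor Lrp6 rose by 0.49 with both probe sets passing, and Rspo3, an R-spondin that amplifies Wnt signals, rose by 1.03 with 1 of 2 sets passing. Fzd5, picked out in the same way, was the one that fell: its brightest set fell by 0.39 (adjusted p = 0.0355) with overlapping groups, and its other set, at a difference of -1.13, passed over all probe sets. Fzd3, also picked out afterwards, counts among those that rose (0.40, limma adjusted p = 0.0459) with overlapping groups. Of its 6 probe sets, 0 passed when adjusted over all probe sets.

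Of 18 secreted and surface inhibitors 3 rose and 2 fell (27.8%), near the 24.2% of all genes, with a median of 0.06. Sfrp4, a decoy that binds Wnt proteins, averaged 7.95 ± 0.10 in Panct1 esiRNA cells and 8.62 ± 0.08 in Luciferase esiRNA cells and fell by 0.67 (SE 0.08, limma adjusted p = 3.57e-04). Sfrp2, of the same family, went the other way, at 8.63 ± 0.16 and 8.00 ± 0.18, a rise of 0.63 (SE 0.11, adjusted p = 0.00303). Shisa2, which holds Frizzled back inside the cell, fell by 0.62 with both probe sets passing. The other genes that rose, picked out in the same way, were Shisa3 by 0.38 and the Dkk1 receptor Kremen1 by 0.46. Of the 3 probe sets of Kremen1, 0 passed when adjusted over all probe sets.

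In the Dishevelled and destruction complex list 2 rose and 1 fell of 23 (13%), below the share over all genes, with a median of 0.01. Gsk3b, the kinase that marks β-catenin for degradation, read 9.05, 9.03 and 9.08 in Panct1 esiRNA cells and 8.29, 8.31 and 8.51 in Luciferase esiRNA cells. It rose by 0.68 (SE 0.07, limma adjusted p = 2.70e-04) or 1.61-fold, and 4 of its 6 probe sets passed as higher. Dvl2, a Dishevelled protein that relays the receptor signal, fell by 0.36, a call lost without Panct1 esiRNA replicate 3 or Luciferase esiRNA replicate 1 or 3 (adjusted p = 0.0587 to 0.0637). Nkd2, which binds Dishevelled, rose by 0.28, and that call was lost without any 1 array but Panct1 esiRNA replicate 1 (adjusted p = 0.0638 to 0.106). Axin1 (0.04) and Csnk1a1 (0.08), also picked out afterwards, did not pass.

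Nuclear cofactors rose in 1 and fell in 2 of 18, a share of 16.7% and a median of -0.02. Tle5, a short member of the Groucho family, averaged 7.76 ± 0.12 in Panct1 esiRNA cells and 8.34 ± 0.15 in Luciferase esiRNA cells and fell by 0.58 (SE 0.09, limma adjusted p = 0.00208). Chd8, a chromatin remodeller that binds β-catenin, fell by 0.43, a call lost without Panct1 esiRNA replicate 1 (adjusted p = 0.0505) or Luciferase esiRNA replicate 1 (0.0583). Bcl9, which ties β-catenin to the Pygo proteins, rose by 0.33, and the call was lost without Panct1 esiRNA replicate 3 or Luciferase esiRNA replicate 1 or 2 (adjusted p = 0.0625 to 0.0832).

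Genes outside the 10 that respond to Wnt in the embryo or in stem cells rose in 8 and fell in 2 of 23 (43.5%). The share over all genes was 24.2%, and the list median was 0.07. Wnt3, Rnf43, Znrf3, Nkd1 and Lgr5 also stand on lists above, and the 29 rises over the 7 lists count Wnt3 once. Fgf8, a growth factor of the streak, read 6.54, 6.85 and 7.06 in Panct1 esiRNA cells and 5.78, 5.86 and 5.63 in Luciferase esiRNA cells and rose by 1.06 (SE 0.13, limma adjusted p = 4.16e-04). Cdx2, a factor of both trophectoderm and posterior embryo, rose by 0.77, and Eomes, a T-box factor of streak and trophectoderm, rose by 0.49. Cdx2 and Eomes are also trophectoderm markers, and Fgf8 and Eomes also streak markers, whose list means are given above. Of genes picked out after seeing their values, Mixl1 rose by 0.59, while the cell cycle targets Myc and Ccnd1 fell by 0.57 and fell by 0.45. The feedback genes Nkd1 (0.01), Znrf3 (0.13), Rnf43 (0.21) and Lgr5 (0.00), named likewise, did not pass.

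Of 6 measured genes that Tcf7l1 has been reported to repress in stem cells, 4 fell and 1 rose (83.3%, beside 24.2% of all genes). Their median difference was -0.53. Nr0b1, an orphan nuclear receptor of the stem cell network, averaged 10.38 ± 0.06 in Panct1 esiRNA cells and 11.70 ± 0.07 in Luciferase esiRNA cells and fell by 1.32 (SE 0.07, limma adjusted p = 6.45e-06). Nr5a2, another nuclear receptor of that network, fell by 0.58, and the zinc finger factor Klf2 fell by 0.55. Outside the naming rule, Esrrb fell by 0.50 and Tfcp2l1 rose by 0.43, each with 1 of 3 probe sets passing over all probe sets. These genes also belong to the naive stem cell network, so the list does not separate a response to Tcf7l1 from a change in that network.

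**Figure D4:**
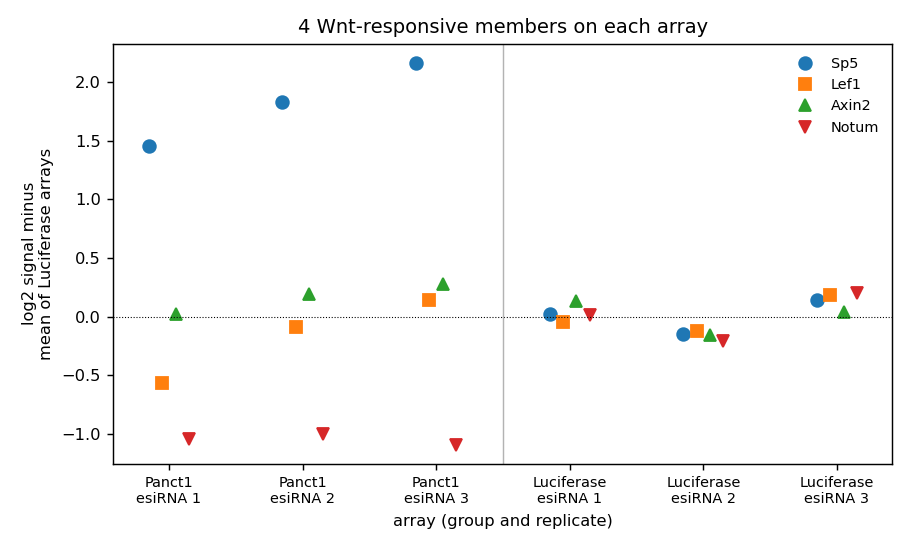
Log2 signal minus the mean of the Luciferase esiRNA arrays (vertical axis) of Sp5, Lef1, Axin2 and Notum, each through its brightest probe set, on each array (horizontal axis), 1 point per array. Sp5 is above and Notum below all control points on the 3 Panct1 esiRNA arrays, while Axin2 and Lef1 overlap their controls.

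Likeness of pattern was measured as the root mean square distance over the 6 arrays between log2 profiles centred on the control mean, over all genes outside the 10. The nearest genes to Sp5 were Bhlhe40 (distance 0.11), Cldn7 (0.15) and Ghr (0.15). To Wnt8a they were Sel1l3 (0.08), Zfp386 (0.09) and Bach1 (0.09), and to Notum they were Slc4a5 (0.06), C730049O14Rik (0.07) and Pramel18 (0.08). With arrays in only 2 groups, the distance mostly ranks genes by how near their difference between groups is.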

How the data were processed

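The deposited values are log2 signals of 6 arrays, made by the authors with GCOS 1.4 and RMA per the submitters' processing notes. RMA corrects background, quantile-normalises arrays and summarises probes, and pulls small differences of dim probe sets towards 0. No value was rescaled, and no array was left out. The 64 control sets were removed. Groups and replicate numbers came from the titles, which do not say that replicates are separate cultures, so p-values reflect the spread among these arrays alone, which could be technical. No 2 arrays were copies (at most 3.21% equal values at the deposited decimals).

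A platform annotation gave 1 symbol to 34945 probe sets, several to 932 and none to 9160, and 34741 symbols were updated through gene IDs with RefSeq (GRCm38.p6). Differences were fitted with limma 3.58.1 in R 4.3.3 (lmFit, eBayes, group only), two-sided, with Benjamini-Hochberg adjustment over all 45037 probe sets for the 10 genes, and over 18193 genes (brightest probe set) for the pathway lists and the cell type markers. Tested on simulated data for this comparison (18193 genes), the script found 14% of 50 genes shifted by 0.3, 80% at 0.6, 88% at 1 and 100% at 2. Only these genes were shifted, a far smaller share than the 24.2% of genes called in the real data. The Benjamini-Hochberg cut-off depends on that share, so the rates do not give the sensitivity in the real data. The number of arrays limits the precision.

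The genes and lists were chosen with earlier results of these data known. The text names all probe sets of the 10 genes, the 3 genes with the smallest p of each of 7 pathway lists, Pou5f1, Nanog, Sox2, Zfp42 and the genes nearest in pattern to Sp5, Wnt8a and Notum. Others are marked where they appear. Alternatives were median centring, a replicate block, a second quantile normalisation, eBayes with trend and robust variance, removal of the 50% dimmest features, removal of sets ending _s_at or _x_at, the mean of probe sets per gene, the brightest set per gene and leaving out each array.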

Additional observations from a re-analysis of the deposited data

How the results depend on the processing

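The direction of Sp5, Wnt8a, Notum and Tcf7l2 1429428_at, and their place past the threshold, held under every alternative that could be run for each, which for Wnt8a excludes removal of the dimmest 50%. Over those alternatives the differences ranged from 1.64 to 1.99 for Sp5, 0.98 to 1.11 for Wnt8a, -1.15 to -0.94 for Notum and 0.72 to 0.95 for Tcf7l2 1429428_at. Removing the dimmest 50% of probe sets left 3 of the calls, because Wnt8a and Tcf7l2 1429427_s_at are then not tested. With 1 array fewer, the calls over the whole array dropped most without Luciferase esiRNA replicate 1, where the count was 4266 in place of 6565 (4266 to 5574 over the 6 arrays left out), and the pathway lists gave 28 to 41 calls in place of 41. Leaving out 1 array gave 4 calls among the 18 probe sets each time. Signs of uncalled sets turned on leaving out an array: -0.18 to 0.03 for Axin2 1421341_at, -0.33 to 0.02 for Lef1 1454734_at, -0.03 to 0.14 for Tcf7l1 1450117_at, -0.09 to 0.01 for Tcf7l2 1426639_a_at and -0.01 to 0.06 for Ctnnb1 1450008_a_at. Same-numbered arrays showed no pairing, with correlations of -0.158, -0.302 and -0.15 in their deviations from group means. Arrays of different numbers correlated at -0.126 to 0.308. The highest values were for Panct1 esiRNA 2 with Luciferase esiRNA 3 (0.308) and Panct1 esiRNA 1 with Luciferase esiRNA 2 (0.258). Next came Panct1 esiRNA 3 with Luciferase esiRNA 1 (0.163), so these highest values together pair each array once. Whether arrays were paired under other numbers was not tested. With the replicate block 4 of the 18 probe sets, 4692 of all probe sets and 39 pathway genes passed, and Tcf7l2 1429427_s_at did not (adjusted p = 0.102). Nkd2 (0.0565) and Pou5f1 (0.0860) were also lost under the block, and Nanog passed with an intensity trend and robust variance (0.0313). The intervals cover the spread between arrays alone, and what RMA's shrinking of differences does to the dim sets Axin2 1421341_at and Dkk1 1458232_at, both below the lower quartile, was not tested.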

Other observations

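Within arrays, the log2 signal of Sp5 minus that of Lef1 (1454734_at) was 0.42, 0.32 and 0.42 on the Panct1 esiRNA arrays and -1.53, -1.63 and -1.64 on the Luciferase esiRNA arrays. The pair was set side by side with earlier results of these data known, so the values are a description of the 6 arrays. On Panct1 esiRNA replicate 1, Sp5 (8.68), Lef1 (8.26), the brighter Axin2 set (7.86) and Fgf8 (6.54) each had the lowest value of the 3 knockdown arrays. That order was not general: the same array was the lowest of its group for 6 of the 18 probe sets and the highest for 7, among them Wnt8a (6.33), Tcf7l1 1450117_at (10.57) and Dkk1 1420360_at (5.81). Notum minus Lef1 was -0.37, -0.81 and -1.13 on the Panct1 esiRNA arrays and 0.16, 0.01 and 0.12 on the Luciferase esiRNA arrays.

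Probe sets of 1 gene disagreed elsewhere in the pathway too, in examples picked out after seeing their values. Apc, the scaffold of the destruction complex, did not pass in its brightest set (-0.17), but 1 of its 4 sets passed as higher, the highest set differing by 0.49. Cd44 rose by 0.56 in its brightest set, with its 4 sets running from -0.16 to 0.90, of which 2 passed as higher. For Gsk3b the 6 sets ran from 0.04 to 0.90.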
